A study of Mus musculus with 15 samples.

Results

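Described here are 42 genes of the immediate early, NF-kB feedback and heat shock responses in sorted thymic dendritic cells of mice with and without the kinase LKB1. The genes were taken from a named list that was chosen with earlier results of these data known. Each symbol was looked up in the deposited count table through its Ensembl identifier. All 42 were found among the 22165 genes of the table, and all 42 passed the filter on low counts and were tested. By role they comprise 6 subunits or partners of the AP-1 transcription factor, 10 other immediate early transcription factors of the EGR, NR4A, KLF and related families, 12 feedback and growth arrest genes, 3 inhibitors of NF-kB signalling and 11 heat shock chaperones.

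Immediate early genes are transcribed within minutes of a stimulus from factors that are already present in the cell, such as serum response factor and CREB, and many of them encode transcription factors with short-lived messages and proteins. Feedback genes of the same wave, among them MAP kinase phosphatases and proteins that bring about decay of AU-rich mRNA, end the response, and the NF-kB inhibitors are in turn transcribed by NF-kB. Heat shock chaperones are induced by heat shock factor when proteins unfold. Genes of all these kinds are also known to respond to tissue digestion and cell sorting, and dendritic cells use the AP-1, EGR and NF-kB programmes during activation by danger signals.

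The study compared 3 dendritic cell subsets of the thymus: conventional type 1 cells (cDC1), conventional type 2 cells (cDC2) and plasmacytoid cells (pDC). Mice carried floxed Stk11, the gene for LKB1, with Itgax-cre (Stk11 fl/fl, KO), which deletes it in cells that express CD11c, or were wild type (WT); whether the WT mice carried Cre is not given. All mice were C57BL/6, of both sexes, and all had received Flt3L-secreting B16 melanoma cells under the skin at 8 to 12 weeks of age to expand dendritic cells, so the controls carried that tumour too. Thymi were taken on day 9 to 12, digested with Collagenase D and DNase I for 20 min at 37 °C, enriched with CD11c beads and sorted as CD8a+CD11c+MHCII+ (cDC1), CD11b+CD11c+MHCII+ (cDC2) or Siglec-H+CD11cint (pDC). The 15 barcoded 3′ libraries are 2 of cDC1 WT, 2 of cDC1 KO, 2 of cDC2 WT, 3 of cDC2 KO, 3 of pDC WT and 3 of pDC KO. Nothing in the labels says that replicates came from separate animals, so p-values measure the spread between these samples only.

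Library totals ran from 3928164 counts (cDC2 WT 1) to 12142712 (cDC2 KO 2), and the 42 genes together held between 2.99% (pDC KO 3) and 6.39% (cDC2 KO 3) of them. At 3928164 counts each, the cDC2 WT libraries held 10840 and 11343 genes against 12419 to 12792 in cDC2 KO. Summed pDC marker levels were 35299 to 56520 CPM (counts scaled to library size) in pDC and 873 to 1790 in conventional cells, as the sort labels state. Thymocyte and T cell markers (11 genes in the table) summed to 381 to 502 CPM in pDC and 75.3 to 200.3 in conventional cells, melanoma markers to at most 0.581 in any library, and erythroid markers to 31.2 in pDC WT 3 against at most 10.1 elsewhere. The part of these other cells in the results below was not tested.

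Promoter sequences were available from RefSeq (GRCm38.p6) for 34 of the 42 genes, and the 250 bases before each start were searched on both strands for short motifs. Shown are 6 picked promoters, each with a heat shock, NF-kB or cAMP match, 5′ to 3′ along the gene's own strand, in lower case with 1 motif in capitals. They are not a ranking by size of change: the promoters of Atf3 and Nr4a2, whose differences were among the widest, held no such match. The capitals mark a heat shock element (GAANNTTC) in Hspa1a and Hspa1b, an NF-kB consensus match in Nfkbia, Ier3 and Fos, and a cAMP response element (TGACGTCA) in Dusp1. They lie at chr17:34972157-34972406, minus strand (Hspa1a), chr17:34959239-34959488, minus strand (Hspa1b), chr12:55492648-55492897, minus strand (Nfkbia), chr17:35821463-35821712, plus strand (Ier3), chr12:85473640-85473889, plus strand (Fos) and chr17:26508473-26508722, minus strand (Dusp1).
Hspa1a: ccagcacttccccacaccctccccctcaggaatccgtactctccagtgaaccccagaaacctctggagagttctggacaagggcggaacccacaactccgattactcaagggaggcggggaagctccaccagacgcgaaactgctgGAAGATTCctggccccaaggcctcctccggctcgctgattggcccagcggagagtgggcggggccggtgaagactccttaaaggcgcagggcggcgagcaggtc
Hspa1b: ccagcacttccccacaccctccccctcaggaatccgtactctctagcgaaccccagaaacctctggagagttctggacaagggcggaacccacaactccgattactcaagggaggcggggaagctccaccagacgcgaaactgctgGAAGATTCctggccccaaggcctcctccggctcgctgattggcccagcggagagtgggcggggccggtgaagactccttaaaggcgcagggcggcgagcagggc
Nfkbia: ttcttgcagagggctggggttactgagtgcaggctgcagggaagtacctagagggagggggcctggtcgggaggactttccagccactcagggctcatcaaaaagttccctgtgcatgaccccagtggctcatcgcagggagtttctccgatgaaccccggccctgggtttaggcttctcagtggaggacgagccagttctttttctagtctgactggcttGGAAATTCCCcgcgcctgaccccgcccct
Ier3: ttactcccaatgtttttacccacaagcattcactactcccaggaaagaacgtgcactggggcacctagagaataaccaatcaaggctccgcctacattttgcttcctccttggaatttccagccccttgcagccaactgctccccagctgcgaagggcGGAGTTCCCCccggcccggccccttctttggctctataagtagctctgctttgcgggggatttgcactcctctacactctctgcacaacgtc
Fos: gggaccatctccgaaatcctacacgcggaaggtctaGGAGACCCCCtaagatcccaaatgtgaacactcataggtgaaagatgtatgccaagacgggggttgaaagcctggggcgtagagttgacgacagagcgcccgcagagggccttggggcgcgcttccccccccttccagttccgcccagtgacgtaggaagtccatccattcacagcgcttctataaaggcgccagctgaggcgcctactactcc
Dusp1: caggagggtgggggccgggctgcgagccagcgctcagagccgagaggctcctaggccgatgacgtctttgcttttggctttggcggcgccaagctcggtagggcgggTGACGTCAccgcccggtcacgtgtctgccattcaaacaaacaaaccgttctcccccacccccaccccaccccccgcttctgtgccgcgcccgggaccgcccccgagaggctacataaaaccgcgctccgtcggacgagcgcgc

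The Hspa1a and Hspa1b windows were identical at 247 of 250 bases. Their marked element covered bases 104 to 97 before the start, the NF-kB match bases 29 to 20 in Nfkbia, 92 to 83 in Ier3 and 214 to 205 in Fos, and the cAMP element bases 143 to 136 in Dusp1. GAANNTTC was found in 6 of the 8 chaperone genes with a promoter (Hspa1a, Hspa1b, Hspb1, Hspe1, Hspd1 and Dnaja1) and in Jun, against 6.69% of 32851 promoters of the same length. The mirror arrangement TTCNNGAA was found in Hspe1, Hspd1, Hsph1 and Egr2 (7.17% of all promoters), and Hspe1 and Hspd1 share 1 divergent promoter. The NF-kB consensus occurred in Fos, Fosb, Ier3, Nfkbia and Tnfaip3 (3.9%), TGACGTCA in Btg2, Dusp1 and Ppp1r15a (1.55%), and the serum response CArG box in Egr2 and Zfp36 (1.47%). A gene was scored as a match if any of its promoters matched, whereas the shares are over single promoters. The units thus differ for genes with several promoters, among them Dnaja1, Hspd1, Hsph1, Egr2 and Tnfaip3. A match describes letters in these windows and does not show a bound site.

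In both genotypes a group of these genes stood lower in pDC than in conventional dendritic cells. In WT, 14 of 42 were lower in pDC than in cDC1 and 3 were higher, where 14.8% of all 11746 tested genes were lower, 12.8% higher and 27.7% past the threshold in either direction (edgeR's quasi-likelihood test, Benjamini-Hochberg adjusted p under 0.05). Against WT cDC2, 12 were lower and 1 higher (12.2% and 11.4% of all tested genes, 23.6% in all). In KO, 13 were lower and 2 higher than in cDC1 (12.4% and 9.08%, 21.5% in all), and 15 were lower and 1 higher than in cDC2 (14.9% and 10.9%, 25.9% in all). The lower share of the 42 was thus 33.3%, 28.6%, 31.0% and 35.7% in the 4 comparisons, above the share of all tested genes in each. Because the 42 genes were chosen with earlier results of these data known, that excess is a description and no test of the list. Monocyte and neutrophil markers summed to 786 to 1449 CPM in pDC WT against 225 to 472 in cDC1 WT and 556 to 1249 in cDC2 WT, and macrophage markers to 99.3 to 123 against 81.4 to 85.7 and 113 to 136. Most of the macrophage sum in pDC WT came from Cd68, at 92.5 to 115 CPM. Gene by gene, 7 of 8 macrophage markers had negative differences of pDC from cDC2 in WT (median −2.62, 4 called lower and 1 higher) and 7 of 8 in KO (median −3.30, 5 lower and 1 higher). Against cDC1 they were 5 of 8 in WT (median −0.37, 1 lower) and 7 of 8 in KO (median −1.40, 2 lower and 1 higher). Of the 8 monocyte and neutrophil markers, 2 were called lower and 1 higher than in WT cDC2, and 1 higher than in WT cDC1. The part of these markers' cells was not tested. In bulk libraries, fewer cells that carry a message and less of that message per cell cannot be told apart.

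The median log2 difference over the 42 genes was −0.55 (WT, pDC against cDC1), −0.60 (WT, against cDC2), −0.80 (KO, against cDC1) and −0.91 (KO, against cDC2), beside −0.05, 0.07, −0.09 and −0.08 over all tested genes. The pDC libraries serve in both comparisons of a genotype, so these are not separate pieces of evidence. Between genotypes, which share no library, 7 genes were lower in pDC than in cDC1 in both (7 of 14 in WT, 7 of 13 in KO): Atf3, Egr2, Egr3, Nr4a2, Myc, Ier3 and Hspa1b. Against cDC2 they were 8 of 12 in WT and 8 of 15 in KO: Atf3, Egr3, Nr4a2, Myc, Ier3, Hspa1a, Hspa1b and Hspd1. Over all tested genes, those lower in both genotypes made up 57.3% of the WT calls and 68.7% of the KO calls against cDC1, and 72.1% and 59.0% against cDC2. No gene passed the threshold in opposite directions in the 2 genotypes.

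Counts moved with single libraries, and the share of all tested genes past the threshold in each leave-out is not given here. The counts therefore do not show whether these genes moved apart from the rest. The 17 genes past the threshold in WT pDC against cDC1 became 9 without cDC1 WT 1, and the 13 against cDC2 became 7 without cDC2 WT 2, the library with the most mt-Co1 (16832 CPM), and 20 without pDC WT 3. In KO, the 15 against cDC1 became 7 without cDC1 KO 1 or without cDC1 KO 2 and 9 without pDC KO 2. The 16 against cDC2 became 9 without cDC2 KO 3 or pDC KO 2 and 10 without pDC KO 3. Atf3, Egr3, Nr4a2 and Myc kept all 4 calls whichever of the 15 libraries was left out.

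**Figure D1:**
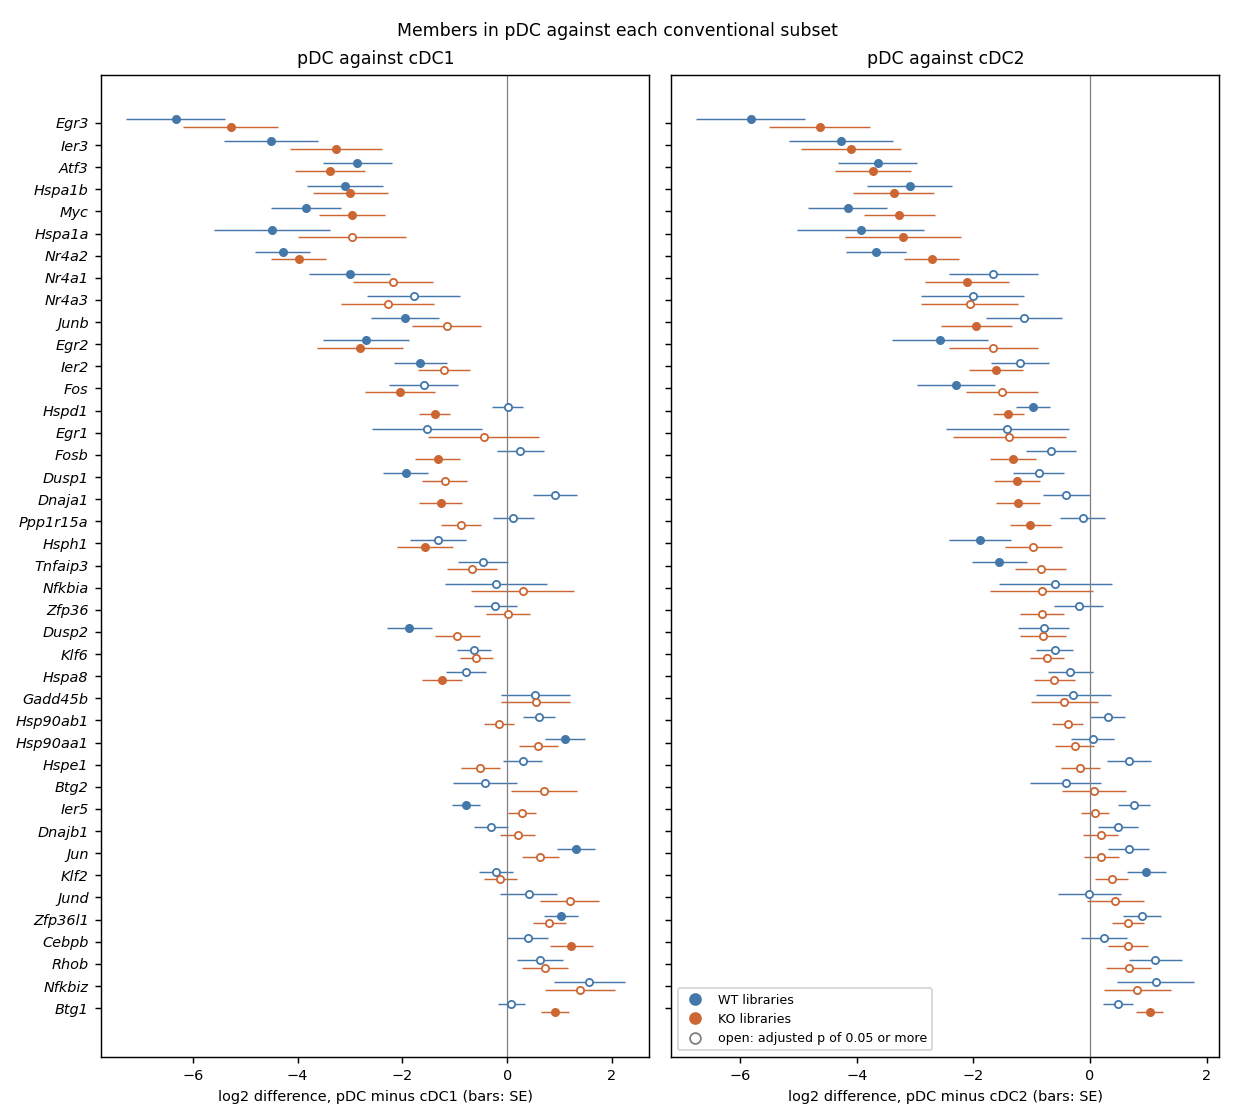
Log2 difference of pDC from cDC1 (left) and from cDC2 (right) with its standard error for 41 of the genes (Hspb1 left out for its zeros), blue for WT and orange for KO, filled where the adjusted p was under 0.05. Egr3, Nr4a2, Myc, Ier3, Atf3 and Hspa1b lie at −2.72 or lower in all 4 comparisons, and both panels use the same pDC libraries.

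Over all 15 libraries, 9 of the 42 genes were lower in each of the 6 pDC libraries than in each of the 9 conventional ones: Atf3, Egr2, Egr3, Nr4a1, Nr4a2, Myc, Ier3, Hspa1a and Hspa1b. Of all tested genes, 7.7% separated in that way. Zfp36l1, which binds AU-rich mRNA and promotes its decay, was the 1 gene of the 42 that was higher in every pDC library (7.72% of all tested genes).

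The transcription factors of the EGR, NR4A and related families gave the widest differences. Of the 10, 5 were lower in pDC than in cDC1 in WT (14.8% of all tested genes) and 4 in KO (12.4%). Against cDC2, 4 were lower in WT (12.2%) and 4 in KO (14.9%). The median of the 10 was −2.24, −2.23, −1.84 and −1.86 in that order. Egr3 (chr14:70077203-70082614, plus strand, GRCm38), a zinc finger factor of the EGR family, was near the detection limit in pDC. Egr3 values were 96.1 and 59.9 CPM in cDC1 WT, 45.1 and 67.2 in cDC1 KO, 54.9 and 55.0 in cDC2 WT and 29.2, 27.0 and 51.5 in cDC2 KO. Those of Egr3 in pDC were 0.13, 0 and 2.61 CPM in WT and 1.20, 2.92 and 0 in KO. Every conventional library held at least 27.0 CPM and no pDC library more than 2.92, so the groups did not overlap. The log2 difference of pDC from cDC1 was −6.33 ± 0.95 (adjusted p = 0.000162) in WT and −5.28 ± 0.91 (adjusted p = 0.0006) in KO, and that from cDC2 was −5.82 ± 0.93 (adjusted p = 0.000321) in WT and −4.63 ± 0.87 (adjusted p = 0.000942) in KO. The 2 zeros allow up to 0.387 CPM in pDC WT 2 and 0.525 in pDC KO 3, taken as 3 counts, and such limits cover counting error only. Without pDC WT 3, which held 23 counts of Egr3 against 1 and 0 in the other pDC WT libraries, the WT differences became −9.87 from cDC1 and −9.38 from cDC2, and neither is a bound.

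Nr4a2 (chr2:57106830-57124003, minus strand), a nuclear receptor without a known ligand, was detected in every library. Nr4a2 was measured at 815 and 519 CPM in cDC1 WT, 592 and 927 in cDC1 KO, 294 and 576 in cDC2 WT and 173, 271 and 507 in cDC2 KO. The pDC Nr4a2 values were 24.4, 19.9 and 58.0 CPM in WT and 65.2, 50.1 and 28.9 in KO. Its lowest conventional library, cDC2 KO 1, lay above its highest pDC library, pDC KO 1. The log2 difference of pDC from cDC1 was −4.29 ± 0.53 (adjusted p = 1.16e-05) in WT and −3.98 ± 0.52 (adjusted p = 2.45e-05) in KO, and that from cDC2 was −3.67 ± 0.52 (adjusted p = 5.47e-05) in WT and −2.72 ± 0.47 (adjusted p = 0.000351) in KO. Myc (chr15:61985391-61990374, plus strand), a factor of cell growth and division, was low throughout. Myc stood at 17.6 and 13.3 CPM in cDC1 WT, 18.8 and 17.2 in cDC1 KO, 22.1 and 16.4 in cDC2 WT and 28.0, 21.7 and 17.4 in cDC2 KO. In pDC, Myc was at 1.43, 1.81 and 0 CPM in WT and 1.5, 2.78 and 2.63 in KO. No pDC library reached the lowest conventional one, and the 0 in pDC WT 3 allows up to 0.34 CPM. The log2 difference of pDC from cDC1 was −3.84 ± 0.67 (adjusted p = 0.000355) in WT and −2.96 ± 0.63 (adjusted p = 0.00229) in KO, and that from cDC2 was −4.16 ± 0.67 (adjusted p = 0.000191) in WT and −3.27 ± 0.60 (adjusted p = 0.000537) in KO.

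Egr2, which with Egr3 restrains lymphocyte activation, and Nr4a1, a nuclear receptor widely used as a sign of antigen receptor signalling, fell in some of the comparisons. Egr2 values were 21.6 and 28.0 CPM in cDC1 WT, 50.4 and 14.9 in cDC1 KO, 11.9 and 33.3 in cDC2 WT and 11.7, 12.4 and 20.0 in cDC2 KO. Those of Egr2 in pDC were 5.34, 0.516 and 5.55 CPM in WT and 8.40, 0.694 and 4.90 in KO. The pDC libraries were lower than all conventional ones, though pDC KO 1 came close to cDC2 KO 1. Egr2 differed from cDC1 by −2.70 ± 0.82 (adjusted p = 0.0233) in WT and −2.81 ± 0.82 (adjusted p = 0.0219) in KO and from cDC2 by −2.57 ± 0.82 (adjusted p = 0.033) in WT, and its KO difference from cDC2 of −1.66 ± 0.76 (adjusted p = 0.123) did not pass. Nr4a1 was measured at 315 and 232 CPM in cDC1 WT, 161 and 206 in cDC1 KO, 113 and 102 in cDC2 WT and 151, 145 and 227 in cDC2 KO. The pDC Nr4a1 values were 15, 11.6 and 75.3 CPM in WT and 91.8, 16.7 and 12.3 in KO. All pDC libraries lay below all conventional ones for Nr4a1. It passed against cDC1 in WT at −3.01 ± 0.78 (adjusted p = 0.00971) and against cDC2 in KO at −2.11 ± 0.72 (adjusted p = 0.0409), and its other differences were −2.19 ± 0.76 (adjusted p = 0.0541) from KO cDC1 and −1.66 ± 0.76 (adjusted p = 0.133) from WT cDC2.

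Egr1, the EGR factor most often used to mark recent stimulation, did not pass any of the 13 tests. Egr1 stood at 218 and 386 CPM in cDC1 WT, 189 and 207 in cDC1 KO, 223 and 337 in cDC2 WT and 186, 338 and 609.6 in cDC2 KO. In pDC, Egr1 was at 16.4, 38.2 and 259 CPM in WT and 359, 50.8 and 24.0 in KO. Here pDC WT 3 and pDC KO 1 reached the conventional range while the other 4 pDC libraries stayed at 50.8 CPM or lower. Its differences from cDC1 were −1.53 ± 1.05 (adjusted p = 0.314) in WT and −0.45 ± 1.06 (adjusted p = 0.817) in KO. Nr4a3, the third NR4A receptor, ranged from 9.93 to 95.2 CPM in pDC and from 67.5 to 249 in conventional cells without a call. Klf6, a Krüppel-like factor, ranged from 2411 to 7739 over all libraries.

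Klf2 and Cebpb each had 1 call in which pDC was higher. Klf2, a Krüppel-like factor that controls lymphocyte trafficking, had its lowest group mean in cDC2 WT. The cDC2 KO 1 library lay within the pDC range. Klf2 values were 588 and 619 CPM in cDC1 WT, 570.0 and 553 in cDC1 KO, 369 and 165 in cDC2 WT and 538, 325 and 328 in cDC2 KO. Those of Klf2 in pDC were 506, 611 and 442 CPM in WT and 499.6, 449 and 589 in KO. Both cDC2 WT libraries lay below all pDC libraries, and pDC exceeded cDC2 in WT by 0.96 ± 0.33 (adjusted p = 0.0436), while its differences from cDC1 were −0.22 ± 0.32 (adjusted p = 0.664) in WT and −0.13 ± 0.32 (adjusted p = 0.824) in KO. Cebpb, a bZIP factor of myeloid and inflammatory gene control, was highest in pDC KO. Cebpb was measured at 42.9 and 19.7 CPM in cDC1 WT, 29.0 and 37.2 in cDC1 KO, 24.8 and 44.1 in cDC2 WT and 51.1, 36.8 and 60.1 in cDC2 KO. The pDC Cebpb values were 31.4, 33.4 and 57.5 CPM in WT and 98.2, 64.0 and 69.9 in KO. The 3 pDC KO libraries lay above every other library, and pDC exceeded cDC1 in KO by 1.22 ± 0.41 (adjusted p = 0.0383), beside 0.39 ± 0.40 (adjusted p = 0.517) in WT. Cebpb overlaps a counted gene on the opposite strand, and so do Junb, Jund, Dusp1, Ppp1r15a, Hspa1a, Hspe1, Hspd1 and Dnaja1. Whether counting used strand is not given in the sources used here, so their values are uncertain.

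With 1 library left out, the WT calls against cDC1 ended for Egr2 without cDC1 WT 1 or cDC1 WT 2 (adjusted p up to 0.112) and Nr4a1 without cDC1 WT 1 (adjusted p up to 0.0737). The WT calls against cDC2 ended for Egr2 without cDC1 WT 2 or cDC2 WT 2 or pDC WT 2 (adjusted p up to 0.309) and Klf2 without any 1 of 9 libraries (up to 0.384). In KO they ended against cDC1 for Egr2 without cDC1 KO 1 or pDC KO 2 (adjusted p up to 0.317) and Cebpb without any 1 of 4 libraries (up to 0.257) and against cDC2 for Nr4a1 without any 1 of 11 libraries (up to 0.119). Egr2 differed by −1.63 from WT cDC2 without cDC2 WT 2 and by −1.68 from KO cDC1 without cDC1 KO 1. Klf2 ranged from 0.50 (without cDC2 WT 2) to 1.66 (without cDC2 WT 1) against WT cDC2, and Nr4a1 reached −3.59 from KO cDC2 without pDC KO 1.

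**Figure D2:**
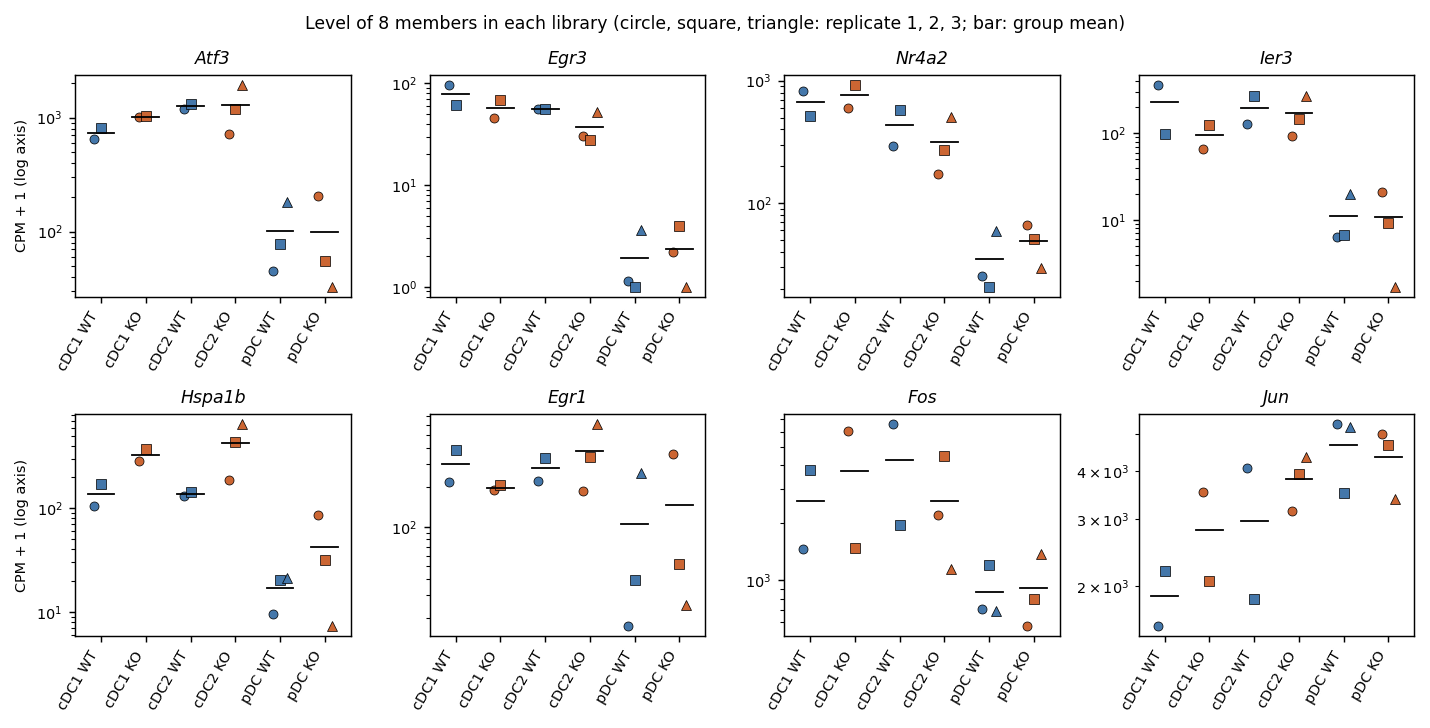
CPM plus 1 on a log axis for 8 genes in every library, blue for WT and orange for KO, with the symbol giving the replicate number and a bar at the group mean. Atf3, Egr3, Nr4a2, Ier3 and Hspa1b sit lower in all pDC libraries, whereas Egr1 reaches 259 CPM in pDC WT 3 and 359 in pDC KO 1, Fos varies widely within groups, and Jun does not fall in pDC.

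Among the 6 AP-1 genes, 2 were lower and 1 higher in WT pDC than in cDC1 (14.8% and 12.8% of all tested genes). Against WT cDC2, 2 were lower (12.2%), and in KO 3 were lower in each comparison (12.4% for cDC1, 14.9% for cDC2). Atf3 (chr1:191170296-191218039, minus strand), a stress-induced repressor of the ATF/CREB family that pairs with Jun proteins, was the AP-1 gene with calls in each of the 4 comparisons. Atf3 stood at 646 and 814 CPM in cDC1 WT, 1011 and 1024 in cDC1 KO, 1190.2 and 1321 in cDC2 WT and 723, 1192 and 1948 in cDC2 KO. In pDC, Atf3 was at 44.1, 77.4 and 179.9 CPM in WT and 206, 54.6 and 31.9 in KO. Its highest pDC value, 206 CPM in pDC KO 1, lay below its lowest conventional value of 646 in cDC1 WT 1. The log2 difference of pDC from cDC1 was −2.86 ± 0.66 (adjusted p = 0.00463) in WT and −3.38 ± 0.67 (adjusted p = 0.00185) in KO, and that from cDC2 was −3.64 ± 0.68 (adjusted p = 0.0011) in WT and −3.72 ± 0.65 (adjusted p = 0.000548) in KO.

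Fos, the AP-1 subunit that must pair with a Jun protein to bind DNA, varied more within groups. Fos values were 1448 and 3781 CPM in cDC1 WT, 6039 and 1466 in cDC1 KO, 6610.1 and 1941 in cDC2 WT and 2195, 4475 and 1148 in cDC2 KO. Those of Fos in pDC were 705, 1206 and 688 CPM in WT and 573, 793 and 1369.8 in KO. The pDC values stayed at 1369.8 CPM or lower, and the lowest conventional library, cDC2 KO 3, fell inside the pDC range. Fos differed by −2.30 ± 0.67 (adjusted p = 0.0214) from WT cDC2 and by −2.04 ± 0.67 (adjusted p = 0.0395) from KO cDC1, and the other differences were −1.59 ± 0.66 (adjusted p = 0.0879) from WT cDC1 and −1.52 ± 0.61 (adjusted p = 0.0837) from KO cDC2. Fosb, its close relative, passed in the KO comparisons. Fosb was measured at 1012 and 1612 CPM in cDC1 WT, 2735 and 2426 in cDC1 KO, 1978 and 3007 in cDC2 WT and 2118, 2554 and 3044 in cDC2 KO. The pDC Fosb values were 779, 1004 and 2907 CPM in WT and 1437, 812 and 838 in KO. The pDC WT 3 and pDC KO 1 values fell in the conventional range while the remaining 4 pDC libraries were at 1004 CPM or lower. Fosb differed by −1.33 ± 0.43 (adjusted p = 0.0352) from cDC1 and −1.32 ± 0.40 (adjusted p = 0.0207) from cDC2 in KO, beside 0.25 ± 0.44 (adjusted p = 0.715) and −0.67 ± 0.43 (adjusted p = 0.287) in WT.

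Junb, a Jun protein that often opposes Jun, was lower in pDC in 2 comparisons. Junb stood at 1133 and 435 CPM in cDC1 WT, 467 and 559 in cDC1 KO, 399 and 492 in cDC2 WT and 710.0, 613 and 1346 in cDC2 KO. In pDC, Junb was at 99.5, 148 and 359.8 CPM in WT and 448, 178 and 64.6 in KO. The pDC values overlapped those of cDC2 WT and cDC1 through pDC KO 1, at 448 CPM. Junb differed by −1.95 ± 0.66 (adjusted p = 0.0375) from WT cDC1 and −1.95 ± 0.61 (adjusted p = 0.0286) from KO cDC2. Jun itself was higher in pDC than in cDC1 in WT. Jun values were 1575 and 2187 CPM in cDC1 WT, 3535 and 2070.4 in cDC1 KO, 4074 and 1849.9 in cDC2 WT and 3154, 3919 and 4352 in cDC2 KO. Those of Jun in pDC were 5308, 3514 and 5217 CPM in WT and 4987, 4683 and 3372 in KO. Each pDC WT library exceeded both cDC1 WT libraries, and the difference was 1.31 ± 0.36 (adjusted p = 0.0104). Jund, the Jun protein with the steadiest expression in most cells, passed no test. Jund was measured at 869.6 and 387 CPM in cDC1 WT, 639 and 527 in cDC1 KO, 1127 and 557 in cDC2 WT and 607, 1368 and 989.6 in cDC2 KO. The pDC Jund values were 481, 643 and 1382 CPM in WT and 2345, 829.9 and 829 in KO. The highest Jund value was that of pDC KO 1.

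With 1 library left out, the WT calls against cDC1 ended for Jun without cDC1 WT 1 (adjusted p up to 0.123) and Junb without any 1 of 6 libraries (up to 0.44), and that against cDC2 for Fos without cDC2 WT 1 or pDC WT 1 (adjusted p up to 0.333). In KO the calls against cDC1 ended for Fos without any 1 of 6 libraries (up to 0.66) and Fosb without any 1 of 5 libraries (up to 0.17) and those against cDC2 for Fosb without any 1 of 4 libraries (up to 0.0891) and Junb without any 1 of 5 libraries (up to 0.121). Junb differed by −1.08 from WT cDC1 without cDC1 WT 1. Fos differed by −1.16 from WT cDC2 without cDC2 WT 1 and by −0.69 from KO cDC1 without cDC1 KO 1.

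Of the 12 feedback and growth arrest genes, 5 were lower in WT pDC than in cDC1 (14.8% of all tested genes) and 1 higher (12.8%). Against WT cDC2, 1 was lower (12.2%). In KO 1 was lower and 1 higher than in cDC1 (12.4% and 9.08%). Against KO cDC2, 4 were lower and 1 higher (14.9% and 10.9%). A count of 1 in 12 is below the share beside it in each case. Ier3 (chr17:35821684-35822923, plus strand), an early response protein that acts on apoptosis and ERK signalling and whose promoter is shown above with an NF-kB match, had the widest differences. Ier3 stood at 363 and 96.8 CPM in cDC1 WT, 64.8 and 124 in cDC1 KO, 127 and 265 in cDC2 WT and 92.2, 145 and 268 in cDC2 KO. In pDC, Ier3 was at 5.34, 5.68 and 19.2 CPM in WT and 20.1, 8.33 and 0.7 in KO. The highest pDC library, pDC KO 1, stayed below the lowest conventional one, cDC1 KO 1. The log2 difference of pDC from cDC1 was −4.50 ± 0.90 (adjusted p = 0.00163) in WT and −3.27 ± 0.87 (adjusted p = 0.0138) in KO, and that from cDC2 was −4.28 ± 0.89 (adjusted p = 0.00265) in WT and −4.10 ± 0.86 (adjusted p = 0.00225) in KO. The call in KO against cDC1 ended without cDC1 KO 1 or cDC1 KO 2 (adjusted p up to 0.155).

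Dusp1 and Dusp2 are phosphatases that switch off MAP kinases. Dusp1 values were 592 and 698 CPM in cDC1 WT, 609.6 and 352 in cDC1 KO, 362 and 260.1 in cDC2 WT and 606, 459 and 443 in cDC2 KO. Those of Dusp1 in pDC were 92.7, 120.2 and 292 CPM in WT and 329, 158 and 146 in KO. The pDC WT values lay below both cDC1 WT libraries, and pDC KO below all cDC2 KO libraries. Dusp1 differed by −1.94 ± 0.43 (adjusted p = 0.00267) from WT cDC1 and by −1.25 ± 0.40 (adjusted p = 0.026) from KO cDC2, beside −0.88 ± 0.43 (adjusted p = 0.151) and −1.19 ± 0.43 (adjusted p = 0.0566) in the other pairs. Dusp2 was measured at 97.3 and 68.8 CPM in cDC1 WT, 59.5 and 92.6 in cDC1 KO, 34.2 and 44.7 in cDC2 WT and 54.1, 66.5 and 85.4 in cDC2 KO. The pDC Dusp2 values were 12.0, 18.1 and 38.1 CPM in WT and 59.4, 29.2 and 29.1 in KO. The pDC WT values lay below both cDC1 WT values, and that comparison was the 1 that passed for Dusp2, at −1.87 ± 0.43 (adjusted p = 0.00357).

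Ier2, a nuclear protein of the early response, and Ier5, which recruits a phosphatase to heat shock factor, behaved apart. Ier2 stood at 242 and 177 CPM in cDC1 WT, 198 and 207 in cDC1 KO, 129 and 176 in cDC2 WT and 226, 218 and 369 in cDC2 KO. In pDC, Ier2 was at 41.5, 41.2 and 116 CPM in WT and 159, 66.0 and 39.4 in KO. The pDC libraries were below all conventional ones except for pDC KO 1. Ier2 differed by −1.66 ± 0.50 (adjusted p = 0.0199) from WT cDC1 and −1.62 ± 0.46 (adjusted p = 0.0151) from KO cDC2. Ier5 values were 766 and 648 CPM in cDC1 WT, 433 and 382 in cDC1 KO, 220.2 and 266 in cDC2 WT and 489, 389 and 527 in cDC2 KO. Those of Ier5 in pDC were 359, 478 and 388 CPM in WT and 618, 481 and 384 in KO. Both cDC1 WT libraries were above all other Ier5 values, and WT pDC differed from them by −0.79 ± 0.26 (adjusted p = 0.0325). Ppp1r15a, which directs dephosphorylation of eIF2 alpha after stress, passed in 1 comparison. Ppp1r15a was measured at 257 and 229 CPM in cDC1 WT, 352 and 424 in cDC1 KO, 333 and 243 in cDC2 WT and 358, 468 and 456 in cDC2 KO. The pDC Ppp1r15a values were 216, 127 and 447 CPM in WT and 269, 202 and 159.5 in KO. In KO its pDC values lay below all cDC2 values, at a difference of −1.02 ± 0.35 (adjusted p = 0.0389).

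Btg1 and Zfp36l1 were higher in pDC. Btg1 is an antiproliferative partner of the mRNA deadenylase complex. Btg1 stood at 1602 and 1107 CPM in cDC1 WT, 1032 and 1006 in cDC1 KO, 1023 and 1034 in cDC2 WT and 968, 791 and 1079.7 in cDC2 KO. In pDC, Btg1 was at 1336, 1289.6 and 1673 CPM in WT and 2366, 1759 and 1639 in KO. All 3 pDC KO libraries exceeded all conventional libraries, and the differences were 0.92 ± 0.27 (adjusted p = 0.0202) from cDC1 and 1.02 ± 0.24 (adjusted p = 0.00352) from cDC2 in KO. Zfp36l1 values were 1777 and 1109.5 CPM in cDC1 WT, 1626 and 1198 in cDC1 KO, 1851 and 1333 in cDC2 WT and 1555, 1651 and 1504 in cDC2 KO. Those of Zfp36l1 in pDC were 2389.9, 2202 and 4241 CPM in WT and 2487, 2027 and 2874 in KO. All pDC libraries exceeded all conventional ones for Zfp36l1, which passed against WT cDC1 at 1.03 ± 0.32 (adjusted p = 0.0242). Among members without a call, Btg2, the relative of Btg1, ranged from 556 to 2847 CPM over all libraries. Zfp36 (tristetraprolin) ranged from 320.1 to 1209 CPM, and the GTPase gene Rhob from 45.2 to 172. Gadd45b, a stress sensor upstream of MAP kinases, stood at 101, 92.4 and 226 CPM in pDC WT and 379, 160.2 and 87.0 in pDC KO, and from 52.2 to 427 in conventional cells.

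With 1 library left out, the WT calls against cDC1 ended for Ier2 without cDC1 WT 1 or pDC WT 1 or pDC WT 2 (adjusted p up to 0.158), Ier5 without any 1 of 4 libraries (up to 0.237), Dusp2 without cDC1 WT 1 (adjusted p up to 0.0516) and Zfp36l1 without cDC1 WT 2 or pDC WT 3 (adjusted p up to 0.238). In KO the call against cDC1 ended for Btg1 without cDC1 KO 1 or cDC1 KO 2 or pDC KO 1 (adjusted p up to 0.146) and those against cDC2 for Ier2 without cDC2 KO 3 or pDC KO 2 or pDC KO 3 (adjusted p up to 0.0686), Dusp1 without cDC2 KO 1 or pDC KO 2 or pDC KO 3 (adjusted p up to 0.11) and Ppp1r15a without any 1 of 4 libraries (up to 0.135). Zfp36l1 differed by 0.68 from WT cDC1 without pDC WT 3.

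The 3 NF-kB inhibitors gave 1 call among the pDC comparisons. Tnfaip3, the ubiquitin-editing enzyme A20, was lower in pDC than in cDC2 in WT, as were 12.2% of all tested genes. Tnfaip3 was measured at 388 and 173 CPM in cDC1 WT, 267 and 367 in cDC1 KO, 402 and 788 in cDC2 WT and 258, 283 and 538 in cDC2 KO. The pDC Tnfaip3 values were 133, 140.1 and 335 CPM in WT and 298, 173 and 129 in KO. Its pDC WT values lay below both cDC2 WT values and overlapped those of cDC1 WT. The difference was −1.55 ± 0.48 (adjusted p = 0.0249), and the call ended without cDC2 WT 2, pDC WT 1 or pDC WT 2 (adjusted p up to 0.273), at a difference of −0.98 without cDC2 WT 2. Nfkbia, which encodes the inhibitor that holds NF-kB in the cytoplasm, varied widely between replicates. Nfkbia stood at 3937 and 930.2 CPM in cDC1 WT, 1283 and 3251 in cDC1 KO, 1721 and 4633 in cDC2 WT and 2429.8, 2860.3 and 9555 in cDC2 KO. In pDC, Nfkbia was at 1261, 995 and 4038 CPM in WT and 5965, 1956 and 409 in KO. Each subset held both high and low libraries, and no comparison passed. Nfkbiz, a nuclear inhibitor and cofactor of NF-kB, stood higher in pDC WT than in cDC1 WT without passing. Nfkbiz values were 477 and 332 CPM in cDC1 WT, 359 and 519 in cDC1 KO, 432 and 661 in cDC2 WT and 359.6, 519 and 1092 in cDC2 KO. Those of Nfkbiz in pDC were 596, 601 and 2382 CPM in WT and 2008, 959.6 and 487 in KO. Its WT difference from cDC1 was 1.56 ± 0.68 (adjusted p = 0.102), with pDC WT 3 well above pDC WT 1 and 2.

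Of the 11 chaperones, 2 were lower and 1 higher in WT pDC than in cDC1 (14.8% and 12.8% of all tested genes). The 2 lower ones were thus near the share of all tested genes. Against cDC2, 4 were lower in WT (12.2%). In KO 5 were lower than in cDC1 (12.4%) and 4 lower than in cDC2 (14.9%). Hspa1a and Hspa1b encode the inducible Hsp70 and lie next to each other (chr17:34969190-34972156 and chr17:34956436-34959238, both minus strand). Hspa1a was measured at 142 and 159 CPM in cDC1 WT, 190.1 and 361 in cDC1 KO, 87.9 and 118 in cDC2 WT and 160.5, 283 and 537 in cDC2 KO. The pDC Hspa1a values were 4.04, 9.68 and 6.46 CPM in WT and 84.9, 20.8 and 0.175 in KO. All pDC libraries were below all conventional ones, by a narrow margin for pDC KO 1, and pDC KO 3 held 1 count. Hspa1b stood at 104 and 171 CPM in cDC1 WT, 282 and 371 in cDC1 KO, 131 and 144 in cDC2 WT and 186, 435 and 650.2 in cDC2 KO. In pDC, Hspa1b was at 8.59, 19.2 and 20.4 CPM in WT and 85.9, 30.4 and 6.30 in KO. Hspa1b separated pDC from conventional libraries as well.

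Hspa1b differed by −3.10 ± 0.72 (adjusted p = 0.00504) from cDC1 and −3.09 ± 0.72 (adjusted p = 0.00589) from cDC2 in WT, and by −3.00 ± 0.71 (adjusted p = 0.00687) and −3.37 ± 0.69 (adjusted p = 0.00194) in KO. Hspa1a differed by −4.48 ± 1.11 (adjusted p = 0.00861) and −3.93 ± 1.09 (adjusted p = 0.0187) in WT and by −3.21 ± 0.99 (adjusted p = 0.0291) from cDC2 in KO, and its KO difference from cDC1, −2.96 ± 1.03 (adjusted p = 0.0567), did not pass. The 2 genes are nearly identical, so how reads were split between them is uncertain, and their counts were also summed. The sum differed by −3.66 (adjusted p = 0.00332) and −3.40 (adjusted p = 0.00617) in WT and by −2.98 (adjusted p = 0.0129) and −3.30 (adjusted p = 0.00444) in KO, from cDC1 and cDC2 in that order.

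The mitochondrial chaperonin Hspd1 (Hsp60) was lower in pDC in 3 comparisons. Hspd1 values were 93.8 and 127 CPM in cDC1 WT, 191 and 180.4 in cDC1 KO, 193 and 242 in cDC2 WT and 200.1, 188 and 176 in cDC2 KO. Those of Hspd1 in pDC were 117, 122 and 94.5 CPM in WT and 74.1, 93.3 and 45.7 in KO. No pDC KO library reached any conventional library. Hspd1 differed by −0.97 ± 0.29 (adjusted p = 0.0221) from WT cDC2, −1.38 ± 0.29 (adjusted p = 0.00209) from KO cDC1 and −1.40 ± 0.27 (adjusted p = 0.000771) from KO cDC2. Its partner Hspe1 (Hsp10), which shares its promoter, ranged from 121 to 356 CPM with no call. Dnaja1, an Hsp40 cochaperone, fell in KO pDC. Dnaja1 was measured at 76.2 and 105 CPM in cDC1 WT, 296 and 213 in cDC1 KO, 183 and 269 in cDC2 WT and 144, 263 and 337 in cDC2 KO. The pDC Dnaja1 values were 145, 89.3 and 276 CPM in WT and 109, 115 and 92.1 in KO. The 3 pDC KO values lay below all KO conventional values, and the differences were −1.27 ± 0.40 (adjusted p = 0.0304) and −1.24 ± 0.37 (adjusted p = 0.0201) from cDC1 and cDC2.

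Hsph1, a nucleotide exchange factor for Hsp70, and Hspa8, the constitutive Hsp70, passed in fewer comparisons. Hsph1 stood at 126 and 63.2 CPM in cDC1 WT, 183 and 204 in cDC1 KO, 107 and 172 in cDC2 WT and 51.6, 118 and 214 in cDC2 KO. In pDC, Hsph1 was at 27.3, 28.6 and 57.0 CPM in WT and 109, 53.0 and 33.3 in KO. The pDC WT values were below both cDC2 WT values, and Hsph1 differed by −1.89 ± 0.54 (adjusted p = 0.0172) from WT cDC2 and −1.57 ± 0.53 (adjusted p = 0.0439) from KO cDC1. Hspa8 values were 2304 and 1634 CPM in cDC1 WT, 2528 and 3954 in cDC1 KO, 1093 and 1788 in cDC2 WT and 1881, 2425 and 1965 in cDC2 KO. Those of Hspa8 in pDC were 742, 1775 and 900.4 CPM in WT and 1140.3, 910.4 and 2042 in KO. Hspa8 differed by −1.25 ± 0.39 (adjusted p = 0.0266) between KO pDC and KO cDC1, whose libraries both exceeded all pDC KO libraries.

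Hsp90aa1, the inducible cytosolic Hsp90, was higher in pDC than in cDC1 in WT. Hsp90aa1 was measured at 3204 and 2215 CPM in cDC1 WT, 3872 and 4689 in cDC1 KO, 5921 and 5368 in cDC2 WT and 7548, 5481 and 10332 in cDC2 KO. The pDC Hsp90aa1 values were 4481, 5409.7 and 7567 CPM in WT and 9018, 7134 and 3256 in KO. All pDC WT libraries exceeded both cDC1 WT libraries, at 1.10 ± 0.38 (adjusted p = 0.0386). Hsp90ab1, its constitutive form, ranged from 5458 to 11802 CPM without a call. Dnajb1, the main Hsp40 partner of Hsp70, also had no call. Dnajb1 stood at 75.3 and 63.2 CPM in cDC1 WT, 56.1 and 98.3 in cDC1 KO, 38.8 and 41.4 in cDC2 WT and 71.6, 65.5 and 97.9 in cDC2 KO. In pDC, Dnajb1 was at 40.5, 60.6 and 66.5 CPM in WT and 116, 82.1 and 68.1 in KO. Its pDC and conventional ranges overlapped. Hspb1 (Hsp27) was at 0 in 7 of 15 libraries and at most 3.34 CPM, so no fold change is given for it.

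With 1 library left out, the WT calls against cDC1 ended for Hspa1b without cDC1 WT 2 (adjusted p up to 0.0532) and Hsp90aa1 without any 1 of 4 libraries (up to 0.255). Those against cDC2 ended for Hspa1a without cDC2 WT 2 (adjusted p up to 0.0525), Hspd1 without cDC2 WT 2 or pDC WT 3 (adjusted p up to 0.147) and Hsph1 without cDC2 WT 2 or pDC WT 1 or pDC WT 2 (adjusted p up to 0.142). In KO the calls against cDC1 ended for Hspa1b without cDC1 KO 2 (adjusted p up to 0.067), Hspa8 without cDC1 KO 2 or pDC KO 1 or pDC KO 2 (adjusted p up to 0.269), Dnaja1 without any 1 of 5 libraries (up to 0.225) and Hsph1 without any 1 of 9 libraries (up to 0.191) and those against cDC2 for Hspa1a without any 1 of 7 libraries (up to 0.0962) and Dnaja1 without cDC2 KO 2 or cDC2 KO 3 or pDC KO 3 (adjusted p up to 0.104). Hspa1a reached −4.93 from KO cDC2 without pDC KO 1.

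Between the conventional subsets few of the 42 genes differed. In WT, 2 were lower in cDC2 than in cDC1 and none was higher, a share of 4.76% beside 4.98% lower, 3.75% higher and 8.73% in either direction of all tested genes. These were Ier5, at −1.54 ± 0.30 (adjusted p = 0.00545), and Klf2, at −1.18 ± 0.36 (adjusted p = 0.048). For Ier5 both cDC2 WT libraries, at 220.2 and 266 CPM, lay below both cDC1 WT libraries, at 766 and 648, and for Klf2 the values were 369 and 165 against 588 and 619. The Ier5 call ended without cDC1 WT 1 (adjusted p = 0.0541). The Klf2 call ended in 10 of the 15 leave-outs, all but those of cDC2 WT 1, cDC2 KO 1, pDC WT 2, pDC WT 3 and pDC KO 3 (adjusted p up to 0.29), and its size ran from −0.72 without cDC2 WT 2 to −1.88 without cDC2 WT 1. In KO, 0 of 42 passed (1.27% of all tested genes), with 2 at an unadjusted p under 0.05, where 8.76% of all tested genes were: Hsp90aa1 at 0.86 ± 0.38 (adjusted p = 0.482) and Nr4a2 at −1.26 ± 0.49 (adjusted p = 0.356). The median over the 42 genes was −0.02 in WT, or 0.07 with DESeq2's size factors, and 0.17 in KO, beside −0.05 and −0.02 over all tested genes.

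The comparison of KO with WT within each subset asks whether loss of LKB1 moved these genes. None of the 42 passed in cDC1, in cDC2, in pDC or in the average over subsets (edgeR's quasi-likelihood test), where 0.0255%, 0.119%, 0.0681% and 0.306% of all tested genes did. At an unadjusted p under 0.05 there were 3, 3, 4 and 6 of the 42, beside 3.83%, 13.3%, 10.6% and 10.2% of all tested genes. DESeq2 also called 0 in each. The median log2 difference of KO from WT over the 42 genes was 0.16 in cDC1, 0.37 in cDC2, 0.25 in pDC and 0.18 on average, beside 0.00, 0.09, 0.00 and 0.05 over all tested genes. Of the 42, 25, 30, 27 and 33 were positive in that order.

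The chaperones had the highest medians of the role groups in cDC1 and in the average. In cDC1 all 11 had positive differences (median 0.75), though Hspb1 was at 1.90 CPM or lower there. In 9 both KO libraries exceeded both WT libraries, as they did in 19.3% of all tested genes. For Hspe1 the margin was 196.7 CPM in KO against 196.3 in WT. In cDC2, 9 of 11 were positive (median 0.46) and 5 did not overlap (23.1% of all tested genes). In pDC, 7 of 11 were positive (median 0.26), with 1 not overlapping upward (5.76%) and 1 downward (5.58%). The smallest unadjusted p in cDC1 was that of Dnaja1, at 1.49 ± 0.46 (adjusted p = 0.876): 296 and 213 CPM in KO against 76.2 and 105 in WT. In cDC2 Dnajb1, at 0.96 ± 0.34 (adjusted p = 0.249), stood at 71.6, 65.5 and 97.9 CPM in KO against 38.8 and 41.4 in WT. A separate list of 35 tested heat shock factor and cochaperone genes had median KO differences of 0.17, 0.15 and −0.02 in cDC1, cDC2 and pDC. Of these, 24, 24 and 15 were positive and 11, 11 and 20 negative.

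The inducible Hsp70 genes had KO differences above 0 in every subset without passing. Hspa1b differed by 1.25 ± 0.78 (adjusted p = 1) in cDC1, 1.62 ± 0.74 (adjusted p = 0.363) in cDC2, 1.35 ± 0.65 (adjusted p = 0.485) in pDC and 1.41 ± 0.42 (adjusted p = 0.258) on average. Hspa1a differed by 0.87 ± 1.12 (adjusted p = 1), 1.66 ± 1.08 (adjusted p = 0.538), 2.39 ± 1.00 (adjusted p = 0.429) and 1.64 ± 0.62 (adjusted p = 0.389). Summed over both genes, the libraries held 471.8 and 733 CPM in cDC1 KO against 247 and 329.9 in cDC1 WT, and 346, 718 and 1187 in cDC2 KO against 219 and 262 in cDC2 WT, so KO and WT did not overlap in either conventional subset. In pDC the sum was 171, 51.2 and 6.48 CPM in KO and 12.6, 28.9 and 26.9 in WT, so the KO libraries lay on both sides of WT. Without pDC KO 3, the library with the lowest sum, Hspa1a passed in pDC at 2.97 ± 0.55 (adjusted p = 0.0369) and on average at 1.83 (adjusted p = 0.0168), and Hspa1b on average at 1.57 (adjusted p = 0.0255). Without pDC KO 1, the library with the highest sum, the Hspa1a difference in pDC was 0.67 (adjusted p = 0.866) and the average for Hspa1b 1.02 (adjusted p = 0.296). With no filter on low counts, both passed in cDC2, in pDC and on average, at nearly the same differences but with smaller standard errors. Hspa1a in pDC was then at 2.40 ± 0.34, beside 2.39 ± 1.00 with the filter, from 566, 150 and 1 counts in the KO libraries. Hspa1b in cDC2 was at 1.58 ± 0.36, beside 1.62 ± 0.74.

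Of the feedback genes, 10 of 12 had negative KO differences in cDC1 (median −0.18) and 8 of 12 had positive ones in cDC2 (median 0.62), and for the group as a whole that difference between subsets was not tested. Ier5 was at −0.80 ± 0.29 (adjusted p = 1) in cDC1, 0.95 ± 0.28 (adjusted p = 0.157) in cDC2 and 0.28 ± 0.24 (adjusted p = 0.753) in pDC. Its values were 433 and 382 CPM in cDC1 KO against 766 and 648 in WT, and 489, 389 and 527 in cDC2 KO against 220.2 and 266 in WT, with no overlap in either subset. The difference of the cDC2 and cDC1 effects was tested as an interaction and came to 1.74 ± 0.40 (adjusted p = 0.316), which DESeq2 called (1.68, adjusted p = 0.015). Dnaja1 differed between pDC and cDC1 at −2.18 ± 0.59 (adjusted p = 0.238), and −2.14 in DESeq2 (adjusted p = 0.0467). Over all 3 interactions, 0 of 42 passed in edgeR (0%, 0% and 0.00851% of all tested genes), and 5, 0 and 3 had an unadjusted p under 0.05 for pDC against cDC1, pDC against cDC2 and cDC2 against cDC1, beside 8.26%, 8.41% and 8.46% of all tested genes.

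In pDC, Cebpb was at 0.92 ± 0.35 (adjusted p = 0.404), with 98.2, 64.0 and 69.9 CPM in KO against 31.4, 33.4 and 57.5 in WT and no overlap. Across the 42 genes, 2 did not overlap upward in pDC (5.76% of all tested genes) and 1 downward (5.58%). In cDC1 there were 12 upward and 7 downward (19.3% and 17.8%), and in cDC2 13 upward and 1 downward (23.1% and 11.7%). The cDC2 WT libraries held fewer detected genes than cDC2 KO at equal depth, and the part of that in the cDC2 values was not tested. The AP-1 genes had median KO differences of 0.50, 0.14 and 0.02 in cDC1, cDC2 and pDC, and Fos, at 0.52 ± 0.74 (adjusted p = 1), −0.71 ± 0.66 (adjusted p = 0.694) and 0.07 ± 0.60 (adjusted p = 0.996), did not pass in any of them.

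**Figure D3:**
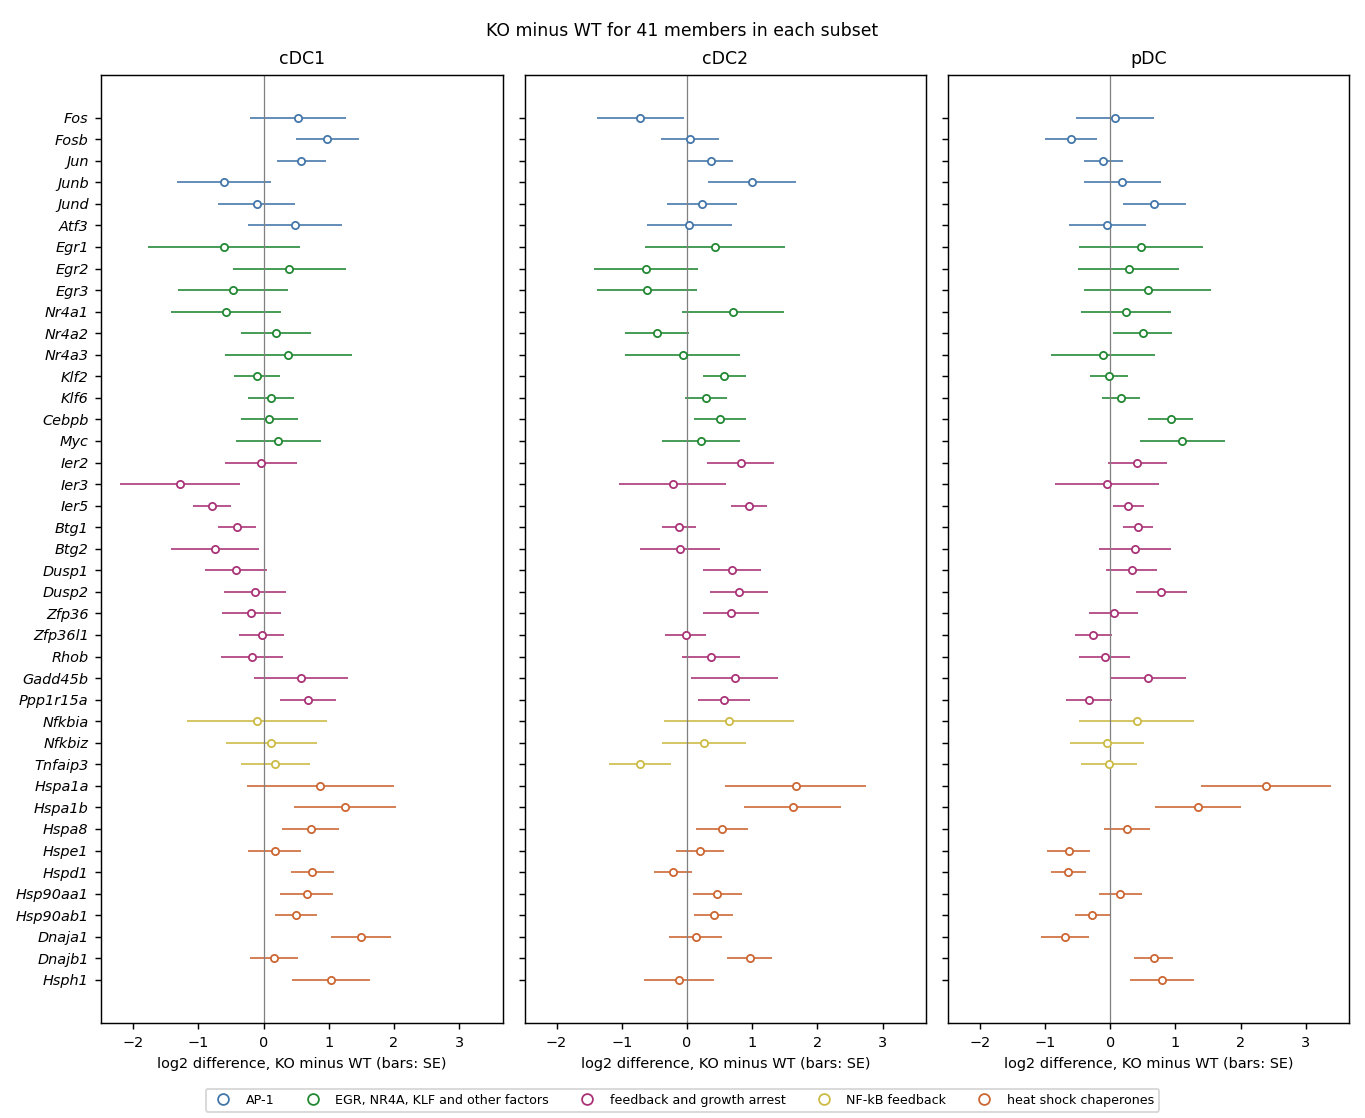
Log2 difference of KO from WT with its standard error for 41 of the genes (Hspb1 left out for its zeros), 1 panel per subset, coloured by role. Chaperones lie above 0 in cDC1, Hspa1a and Egr1 have the widest bars, and no gene passed the adjusted threshold.

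Replicates of a group differed from each other over many of these genes at once. In pDC WT, 32 of 42 were highest in pDC WT 3, the library that was highest for 36.9% of all tested genes, and in pDC KO, 32 were highest in pDC KO 1 (34.0%). In cDC2 KO, 33 were highest in cDC2 KO 3 (35.6%). Where groups had 2 libraries, 29 of 42 were higher in cDC1 WT 1 (50.0%), 27 in cDC1 KO 2 (51.1%), and 28 of the 41 without a tie in cDC2 WT 2 (52.3%). The libraries named here belong to WT and KO alike. The pDC WT 3 library also had the lowest scaling factor, 0.841, and an erythroid marker sum of 31.2 CPM, and the part of either was not tested. The mitochondrial transcript mt-Co1, read as a sign of RNA quality, was at 16832 CPM in cDC2 WT 2 against 4087 in cDC2 WT 1, and at 11869 in pDC KO 1 against 8197 and 5911 in the other pDC KO libraries. It was at 5311 in pDC WT 3, below pDC WT 1 and 2 (8488 and 7709), and at 4930 in cDC2 KO 3, below cDC2 KO 1 and 2 (5108 and 5606). Its part was not tested.

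The ratio of the highest to the lowest library, taken on CPM + 1, had a median of 2.65 over the members at a mean of at least 10 CPM in pDC WT, against 1.64 over all tested genes at that level. It was 2.30 against 1.58 in pDC KO, 1.85 against 1.43 in cDC2 KO, 1.44 against 1.27 in cDC1 WT, 1.28 against 1.21 in cDC1 KO and 1.39 against 1.40 in cDC2 WT. The widest member was Egr1 in pDC WT, highest in pDC WT 3 and lowest in pDC WT 1, with a ratio of 14.9 on CPM + 1 and 15.8 on CPM. In pDC KO it was Hspa1a, whose ratio of 73.1 on CPM + 1 becomes 485 on CPM and rests on 1 count in pDC KO 3. In cDC2 KO it was Hsph1 (4.09), in cDC1 WT Nfkbia (4.23), and in cDC1 KO and cDC2 WT Fos (4.12 and 3.40).

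**Figure D4:**
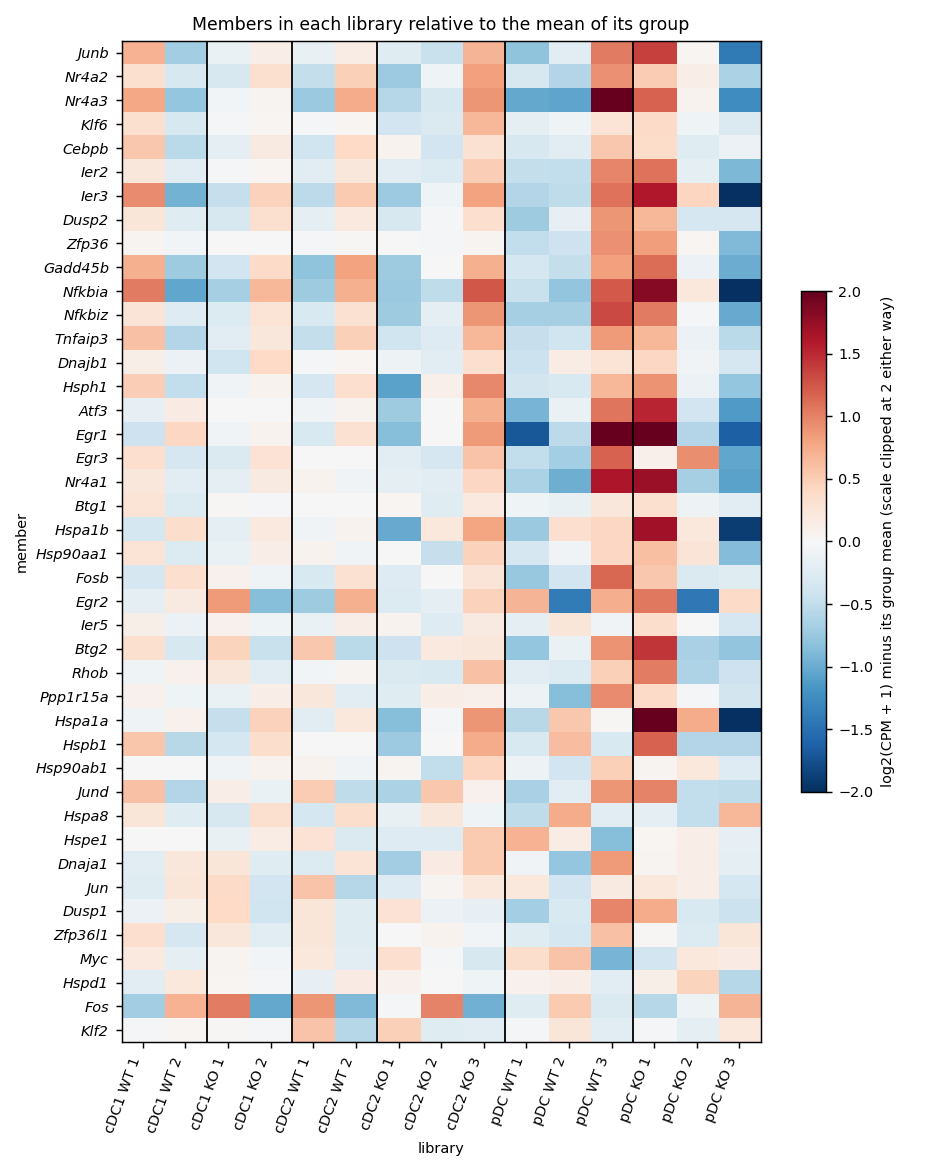
Log2(CPM + 1) minus the mean of its group for the 42 genes in 15 libraries, on a colour scale limited to ±2, with genes ordered by how often they peak in the library where Nfkbia does. The pDC WT 3, pDC KO 1 and cDC2 KO 3 columns are the highest of their group for 32, 32 and 33 genes, and Fos and Klf2 lie at the other end of the order.

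Many of the members were highest in the same library of a group, and the order of the remaining libraries was not compared. Taking Nfkbia as the reference, a choice made after its values were seen, 15 members including Nfkbia itself were highest in the same library of all 6 groups, as were 3.46% of all tested genes: Junb, Nr4a2, Nr4a3, Klf6, Cebpb, Ier2, Ier3, Dusp2, Zfp36, Gadd45b, Nfkbia, Nfkbiz, Tnfaip3, Dnajb1 and Hsph1. A further 7 did so in 5 groups (7.96% of all tested genes): Atf3, Egr1, Egr3, Nr4a1, Btg1, Hspa1b and Hsp90aa1. Jun, Dusp1 and Zfp36l1 did so in 2 groups, Myc and Hspd1 in 1, and Fos and Klf2 in none, as did 24.7%, 18.6% and 7.02% of all tested genes in that order. All these genes share the depth and scaling of a library, so this is a description without a test.

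Some members went the other way, and Fos did so in every group. In all 6 groups the library with the most Nfkbia had the least Fos, as it did of 1.8% of all tested genes. Myc was lowest there in 5 groups (7.7% of all tested genes), and Klf2, Dusp1 and Hspd1 in 4 (15.6%). The cDC1 WT, cDC1 KO and cDC2 WT groups had only 2 libraries each. In pDC WT the margin was small, with Fos at 688 CPM in pDC WT 3 and 705 in pDC WT 1. In cDC1 KO, Fos was at 6039 and 1466 CPM where Nfkbia was at 1283 and 3251. In cDC2 WT, Fos was at 6610.1 and 1941 where Nfkbia was at 1721 and 4633. In cDC2 KO 3, Nfkbia reached 9555 CPM, its highest value of all libraries, and Fos was at 1148, its lowest among conventional libraries. Fos was singled out after its values were seen. Fosb was highest with Nfkbia in 4 of 6 groups, as were 15.6% of all tested genes.

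**Figure D5:**
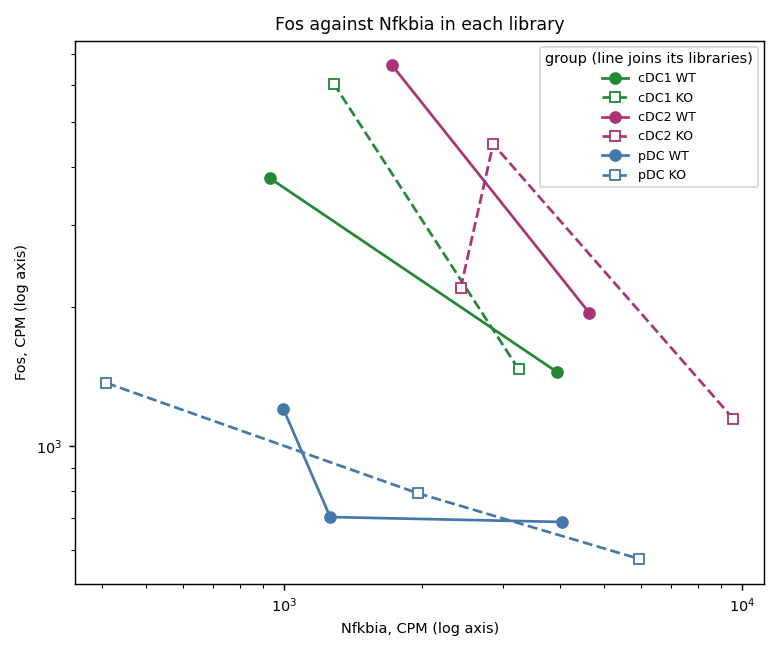
Fos against Nfkbia in CPM on log axes, 1 point per library, with lines joining the libraries of a group. In each of the 6 groups the library highest in Nfkbia is the lowest in Fos, for example cDC2 KO 3 with 9555 CPM of Nfkbia and 1148 of Fos.

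Other genes of the same pathways were read from lists of 35 tested heat shock factor and cochaperone genes, 25 tested NF-kB genes and 38 tested serum response and MAP kinase genes. None passed in any comparison of KO with WT. In WT pDC against cDC1, 2, 2 and 4 were higher and 7, 7 and 5 lower, and against cDC2, 2, 1 and 4 were higher and 4, 7 and 6 lower, in that order of lists. In KO pDC against cDC1, 0, 1 and 2 were higher and 15, 8 and 3 lower, and against cDC2, 1, 1 and 2 were higher and 8, 8 and 7 lower. In these comparisons, in the order WT cDC1, WT cDC2, KO cDC1 and KO cDC2, 12.8%, 11.4%, 9.08% and 10.9% of all tested genes were higher and 14.8%, 12.2%, 12.4% and 14.9% lower. The heat shock list had 20.0%, 11.4%, 42.9% and 22.9% lower, the NF-kB list 28.0%, 28.0%, 32.0% and 32.0%, and the serum response list 13.2%, 15.8%, 7.89% and 18.4%. These lists too were chosen with earlier results of these data known, so their shares are a description. Il1b, an inflammatory cytokine gene under NF-kB control, differed by −4.76 ± 0.73 (adjusted p = 0.000156) from WT cDC1, −6.05 ± 0.74 (adjusted p = 2.12e-05) from WT cDC2, −4.22 ± 0.67 (adjusted p = 0.000245) from KO cDC1 and −5.68 ± 0.68 (adjusted p = 1.12e-05) from KO cDC2. The chemokine gene Cxcl10 differed by −2.45, −3.66, −3.01 and −4.08 in the same order. Of the heat shock list, the chaperonin subunit gene Cct3 differed by −1.50 ± 0.26 (adjusted p = 0.000281) from WT cDC1 and −1.27 ± 0.25 (adjusted p = 0.00133) from KO cDC1, the heat shock factor gene Hsf2 by −2.51 ± 0.49 (adjusted p = 0.000918) from WT cDC1, and the cochaperone gene St13 by −1.47 ± 0.29 (adjusted p = 0.00128) from KO cDC1.

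Other members of these lists were higher in pDC. Ccl4, a chemokine gene that NF-kB also controls, differed by 2.03, 2.57, 3.62 and 2.69 (adjusted p = 0.00338, 0.000744, 4.47e-05 and 8.3e-05), in the order WT cDC1, WT cDC2, KO cDC1 and KO cDC2. Cd69, an early activation antigen that retains cells in tissue, differed by 3.41, 1.69, 3.78 and 2.23 (adjusted p = 0.000204, 0.0218, 9.19e-05 and 0.00108). Thymocytes also express Cd69, and thymocyte and T cell markers summed to 381 to 502 CPM in pDC against 75.3 to 200.3 in conventional cells, while Cd3e was at most 7.83 CPM in any library. Cd8b1, at 182 to 258 CPM, and Dntt, at 73.7 to 97.6, made up most of the pDC sum. Of the 11 markers, 8 had negative differences of pDC from WT cDC1 (median −0.37, 2 called higher) and 8 had positive ones from WT cDC2 (median 1.59, 4 called higher). The part of such cells was not tested. In WT cDC2 against cDC1, 1, 2 and 0 members of the lists were higher and 2, 0 and 2 lower (3.75% and 4.98% of all tested genes), among them Tnip3, a partner of A20, at 3.94 ± 0.80 (adjusted p = 0.00873), Nfkb1, the p50 subunit, at 1.30 ± 0.34 (adjusted p = 0.0247), and the salt-inducible kinase gene Sik1 at −1.54 ± 0.41 (adjusted p = 0.0276). None passed in KO cDC2 against cDC1.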

How the data were processed

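The values are whole-number counts per gene in 1 table of all 15 libraries, as deposited by the authors. Per the submitters' processing notes, STAR, HTSeq and DESeq2 were used with mm10. Their versions, the annotation and the strand setting are not stated in any label or header. The 3′ libraries were amplified for 12 PCR cycles, per the labels' protocols, and no molecular identifiers are described, so duplicate molecules may be counted. Of 22165 identifiers 21745 matched a symbol. Gene coordinates are from GENCODE (GRCm38) and promoters from RefSeq (GRCm38.p6).

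Counts were tested with edgeR 4.0.16 (R 4.3.3): filterByExpr on the 6 groups kept 11746 genes (those left out held 0.0538% of counts), followed by TMM scaling, robust glmQLFit and glmQLFTest. All libraries entered 1 fit without covariates, p-values were Benjamini-Hochberg adjusted over all tested genes and the threshold was 0.05. CPM uses the scaled library size. Log2 differences are given ± standard error. The common biological coefficient of variation was 0.395. The script was tested on simulated data. A DESeq2 1.42.0 fit, limma 3.58.1 (voom), other scalings and filters, offsets for length and GC content, a replicate block and leaving out libraries were tried.

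Members and lists were chosen with earlier results of these data known. Values in every library are given for members past the threshold in any comparison, for the 2 with the smallest p of each role in each KO comparison, and for Fos, Jun, Egr1, Hspa1a, Hspa1b, Dusp1 and Nfkbia. Other members are given by range. Of the related lists, genes past the threshold are named, at most 3 per direction and list. The totals of 3928164 to 12142712 counts set the precision, and a count of 0 was given the limit of 3 counts.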

Additional observations from a re-analysis of the deposited data

How the results depend on the processing

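Of 103 named results, 102 kept their direction and side of the threshold with DESeq2, 100 with its size factors in edgeR, 99 with limma voom, 99 with no filter, 92 with offsets for length and GC content, and 94 without pDC WT 3 and pDC KO 1, which was chosen after seeing the data. Whether same-numbered libraries share animals is not given in the labels. Same-numbered libraries correlated from −0.238 to 0.209 in their deviations from the group means, and differently numbered ones from −0.314 to 0.314. In groups of 2 libraries the deviations mirror each other, so these values cannot settle a pairing. A replicate block left 14, 11, 2, 12 and 13 genes past the threshold in WT pDC against cDC1, WT pDC against cDC2, WT cDC2 against cDC1, KO pDC against cDC1 and KO pDC against cDC2, and 0 in the others, and 11 of the 103 results lost their call. The cause of the changes below was not tested. Counts below stand without the share of all tested genes past the threshold in each setting, which is not given here. By themselves they do not show whether these genes changed apart from the rest.

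With no filter on low counts, 2 genes passed in KO against WT in cDC2, in pDC and on average (Hspa1a and Hspa1b in each), 1 in the pDC minus cDC1 difference of effects, 21 in WT pDC against cDC2, 6 in WT cDC2 against cDC1, 23 in KO pDC against cDC1, 25 in KO pDC against cDC2 and 2 in KO cDC2 against cDC1. DESeq2 gave 1 for each of the pDC minus cDC1 and cDC2 minus cDC1 differences of effects and 4 in WT cDC2 against cDC1. Voom gave 24 in KO pDC against cDC1 and 1 in KO cDC2 against cDC1. WT cDC2 against cDC1 gave 1 without robust estimation, 0 from its own groups alone, 1 with the offsets and 4 without the 2 pDC libraries, and without those WT pDC against cDC2 gave 23. KO cDC2 against cDC1 gave 1 from its own groups alone. Nfkbiz in pDC, at −0.05 for KO against WT, turned to 0.36 with voom, 0.37 with the replicate block, 0.015 with the offsets and 0.28 without the 2 pDC libraries.

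Leaving out 1 library at a time, the counts ran from 0 to 1 for KO against WT in pDC, 0 to 2 on average (both highest without pDC KO 3), 9 to 18 for WT pDC against cDC1, 7 to 20 for WT pDC against cDC2, 0 to 3 for WT cDC2 against cDC1 (lowest without cDC1 WT 1), 7 to 20 for KO pDC against cDC1 and 9 to 22 for KO pDC against cDC2. Differences of KO from WT that turned sign ran from −0.29 to 0.86 (Tnfaip3) and −0.17 to 0.40 (Nfkbiz) in cDC1, and from −1.40 to 0.44 (Fos) and −0.26 to 1.54 (Nfkbia) in cDC2. In pDC they ran from −0.93 to 0.20 (Fosb), −0.012 to 1.24 (Jund), −0.83 to 1.29 (Nfkbia) and −0.72 to 0.93 (Nfkbiz), and on average from −0.34 to 0.024 (Tnfaip3) and −0.10 to 0.76 (Nfkbia). A group left with 1 library was assumed to vary like the others. Depth limits Egr3, Myc and Hspb1, which had libraries at 0 counts.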
